A study of Mus musculus with 12 samples.

Results

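Stage II tumor ovaries of Pgrcre/+PgrBLsL/+ mice were set against tumor-free ovaries of Pgrcre/+ mice across 10949 genes. The genes are all those of the deposited table with a probe set that the platform annotation pairs with 1 gene symbol, and a gene with several probe sets was read from its brightest probe set by mean level across the 12 arrays of the series. Of the 16376 probe sets in the table, 14674 had 1 symbol, 427 had several and 1275 had none. The comparison used 9 of the 12 arrays, 3 of stage II and 6 of controls, and the 3 arrays of stage I ovaries of the same genotype as stage II entered the estimate of the spread and are quoted beside the results. All mice were females of 23 weeks killed at diestrus, the phase of the estrous cycle that was read from vaginal smears. Every mouse carried 1 copy of Pgrcre. The stage I and stage II mice also carried 1 copy of the PgrBLsL allele, and each of their ovaries had a tumor stage in the labels. No control had either. The allele and the tumor therefore cannot be told apart here, and the labels do not spell out what PgrBLsL stands for. The replicates are called bioreplicates in the labels, 1 array each.

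Pgr encodes the progesterone receptor, a nuclear hormone receptor that binds progesterone and switches on or off the genes near the DNA elements it occupies. In the ovary it appears for a short time in granulosa cells of the follicle before ovulation, and its loss blocks release of the egg. In the oviduct and uterus it controls epithelial growth and secretion. Cre from the Pgr locus acts in the cells that use this gene and in their descendants, in the ovary and elsewhere in the reproductive tract. The title of the series names constitutive expression of the receptor's isoforms and ovarian neoplasia, and the comparison asks which genes differ between an ovary with such a tumor and one without.

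Array medians ran from 7.09 to 7.15 on the deposited log2 scale, so total RNA per cell cannot be read from these values. Transcripts of ovarian cells were present in the controls, among them Inha of granulosa cells with a lowest control level of 13.33 and Zp3 of the oocyte coat with a lowest control level of 9.07. The oviduct marker Ovgp1 reached 12.7 in control replicate 5, 11.8 in stage I replicate 2 and 11.6 in stage II replicate 2, against a control median of 6.71. What oviduct tissue added to other results was not tested beyond a fit without these 3 arrays, which called 1709 genes. Levels come from whole ovaries, and fewer cells of a type cannot be told apart from less RNA per cell. On the first principal component, stage II replicates 1 and 2 lay at 30.2 and 27.6, replicate 3 lay at 42.2, and the controls lay from -17.6 to -15.1. On the second component, control replicates 1 and 4 lay at 17.4 and 19.4 and the other 4 controls from -7.38 to -0.14, and a fit without both called 2651 genes.

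Pgr itself rose in stage II ovaries. Control levels had a lowest value of 3.74, a median of 4.19 and a highest value of 4.60, and the 3 stage II arrays read 9.78, 9.96 and 10.09. The stage II arrays were high and close together, and the groups did not overlap. The mean difference was 5.75 on the log2 scale (SE 0.15, 53.7-fold, limma adjusted p = 4e-10). Stage I ovaries were already 4.95 above the same controls, and stage II was 0.80 above stage I (adjusted p = 0.012). The files do not tell which allele the Pgr transcripts came from.

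With limma and a Benjamini-Hochberg adjusted p under 0.05, 2302 of the 10949 genes differed between stage II and control, which is 21% of those tested. Of these, 1074 were higher (9.81%) and 1228 were lower (11.2%) in stage II, around a median difference over all genes of -0.01. Counts of called list members given below are to be read beside these shares. The increases were larger than the decreases. At least 2-fold changes were found for 244 genes that were higher (2.23%) and 30 that were lower (0.274%), and at least 10-fold changes for 32 and 1. Stage II and control arrays did not overlap for 1092 genes that lay higher (9.97%) and 1319 that lay lower (12%). Without stage II replicate 3 the calls were 713 higher and 432 lower, so that array alone moved the count of decreases from 1228 to 432. In fits that left out each of the 12 arrays in turn, 1028 genes (9.39%) were called every time, 634 of them higher (5.79%) and 394 lower (3.6%), and the genes described below are of that kind unless an array is named. Against stage I, 716 genes were higher in stage II (6.54%) and 654 were lower (5.97%), whereas 21 genes (0.192%) passed for stage I against control. Of the 1074 genes above control, 652 were also above stage I, and of the 1228 below control, 570 were also below stage I.

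The largest increase was in Prl7a2, a placental hormone of the prolactin family. Its control levels ran from 3.00 over a median of 3.28 to 3.51, and the stage II arrays read 11.96, 11.44 and 11.61. The difference was 8.41 (SE 0.39, 340-fold, limma adjusted p = 1.2e-07), with a wide gap between the groups. Lcn2, a secreted lipocalin that binds bacterial siderophores, followed with a control range of 5.06 to 7.12 (median 6.03) and stage II levels of 14.14, 14.08 and 14.10. It rose by 8.05 (SE 0.48, 264-fold, adjusted p = 7.3e-07). Its stage II levels lie close under the highest value of the table, 14.44, and whether the scale limited them, and with them the fold and the difference from stage I, was not tested. Stage I was 6.68 above control for Lcn2, and stage II was not separated from stage I by the test (difference 1.37, adjusted p = 0.13).

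**Figure D1:**
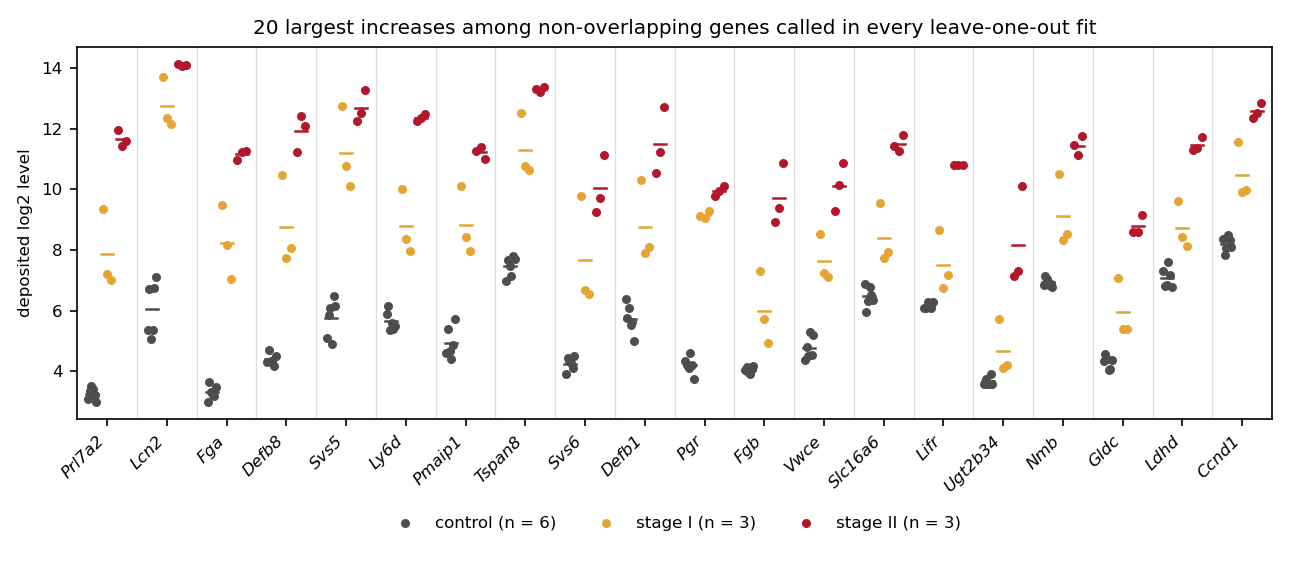
The deposited log2 level (vertical axis) of 20 genes is plotted for each array of the control, stage I and stage II groups, with the group mean as a short line. They are the largest increases among genes chosen to have no overlap of stage II with control arrays and a call in every fit that left out 1 array, so the separation follows from the choice. Ugt2b34 has 2 stage II arrays near 7.2 and 1 at 10.11.

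Several of the highest genes were neighbours in the genome. Fgg, Fga and Fgb, which encode the 3 chains of the clotting protein fibrinogen, lie side by side on chromosome 3 with 0 protein-coding genes between them. Svs6 and Svs5, which encode secretory proteins of the seminal vesicle, are neighbours on chromosome 2. Of the 25 highest genes, 20 had a promoter in the RefSeq table of build GRCm38.p6, and Slc16a6, Pmaip1, Ccnd1, Defb1 and Ly6d had none in it. The 250 bases before the start were searched on both strands. The hexamer TGTTCT (reverse complement AGAACA), which is part of the element bound by the progesterone, glucocorticoid and androgen receptors, was found for 7 of the 20 genes (35%), against 18.2% of all 27025 genes with such a window and 14.8% of those measured here. These 7 genes were Apoh, Defb8, Fgg, Nmb, Svs5, Svs6 and Ugt2b34. The windows of Svs5 and Svs6 are near copies (96.3% identical), so their matches are not separate, and the difference in shares was not tested. The full element, the hexamer and its reverse complement as an inverted repeat, was found for 0 of the 20 and in 3 of 32851 windows overall. The hexamer GTTAAT (reverse complement ATTAAC), an arm of the site bound by hepatocyte nuclear factor 1, was found for Fga, Fgb and Gsta3, or 3 of 20 (15%), against 7.49% of all genes. Neither hexamer overlaps the other. A match describes the letters in the window and no binding was measured.

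The windows of both gene groups are given from 250 bases before the start to the last base before it, 5′ to 3′ on the strand of the gene, because these neighbours moved together. For the fibrinogen genes the capitals mark GTTAAT or its reverse complement, and for the seminal vesicle genes they mark TGTTCT. The windows lie at chr3:83025903-83026152 (plus strand) for Fga, chr3:83049864-83050113 (minus strand) for Fgb, chr3:83007474-83007723 (plus strand) for Fgg, chr2:164332515-164332764 (plus strand) for Svs5 and chr2:164316501-164316750 (plus strand) for Svs6.
Fga: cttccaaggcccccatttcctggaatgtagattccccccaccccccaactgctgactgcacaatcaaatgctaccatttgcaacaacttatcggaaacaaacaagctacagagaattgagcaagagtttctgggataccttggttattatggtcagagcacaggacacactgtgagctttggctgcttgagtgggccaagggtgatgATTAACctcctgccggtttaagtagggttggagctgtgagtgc
Fgb: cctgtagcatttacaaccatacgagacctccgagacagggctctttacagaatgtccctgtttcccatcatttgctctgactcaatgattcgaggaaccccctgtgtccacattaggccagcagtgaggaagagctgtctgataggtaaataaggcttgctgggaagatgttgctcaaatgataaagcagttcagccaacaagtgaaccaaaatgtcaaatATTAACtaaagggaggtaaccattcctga
Fgg: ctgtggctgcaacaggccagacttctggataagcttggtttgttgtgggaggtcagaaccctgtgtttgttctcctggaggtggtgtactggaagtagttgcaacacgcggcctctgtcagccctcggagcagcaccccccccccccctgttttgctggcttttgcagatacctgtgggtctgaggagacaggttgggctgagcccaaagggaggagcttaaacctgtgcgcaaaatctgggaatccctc
Svs5: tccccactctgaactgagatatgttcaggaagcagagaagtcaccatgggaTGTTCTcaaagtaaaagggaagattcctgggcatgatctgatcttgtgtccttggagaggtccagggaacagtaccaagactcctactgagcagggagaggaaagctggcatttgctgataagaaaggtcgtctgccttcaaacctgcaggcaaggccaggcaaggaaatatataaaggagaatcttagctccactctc
Svs6: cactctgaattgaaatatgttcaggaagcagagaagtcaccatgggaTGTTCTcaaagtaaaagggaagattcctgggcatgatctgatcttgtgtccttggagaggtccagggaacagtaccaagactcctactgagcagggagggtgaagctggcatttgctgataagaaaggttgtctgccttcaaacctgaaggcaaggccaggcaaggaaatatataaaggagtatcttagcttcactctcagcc
Counted from the gene's start, the match to GTTAAT begins at position -43 in Fga and at position -29 in Fgb, and Fgg has 0 matches to it. The TGTTCT of Fgg is not marked in its window. Counted from the gene's start, TGTTCT begins at position -199 in Svs5 and at position -203 in Svs6. The Svs5 and Svs6 windows were identical at 96.3% of 246 aligned bases. This identity is of promoter windows, and whether the probe sets of Svs5 and Svs6 also read each other's transcripts was not tested.

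Of 19 measured liver plasma protein genes, 8 rose and 0 fell in stage II. Fga had control levels from 2.99 over a median of 3.26 to 3.63 and stage II levels of 10.97, 11.24 and 11.27, a rise of 7.86 (SE 0.37, 232-fold, limma adjusted p = 1.2e-07). Fgb read 8.93, 9.37 and 10.88 in stage II against a highest control of 4.17, and rose by 5.68 (SE 0.46, adjusted p = 5.3e-06). Fgg read 6.95, 8.34 and 9.24 against a highest control of 4.10, a rise of 4.27 (SE 0.40, adjusted p = 1.6e-05) that became 4.88 without stage II replicate 1. The 3 chains thus lay above every control in every stage II ovary, and Fgb and Fgg varied most among those ovaries. Apoh, a phospholipid-binding plasma protein, rose by 4.27 (19.2-fold), Apoa1, the main protein of high-density lipoprotein, by 3.21 (9.26-fold), and Cp, the copper carrier ceruloplasmin, by 3.17 (9.01-fold). Alb, the albumin gene, was chosen after its values were seen and read 4.79, 4.70 and 4.98 in stage II against 4.59 to 4.91 in controls, a difference of 0.04 (SE 0.09, adjusted p = 0.82). The median of the list was 0.23, against -0.01 over all genes. Without stage II replicate 3, 7 of the 19 were called higher.

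Of 12 secreted innate defence genes, 5 rose and 0 fell. Besides Lcn2, 2 of 3 measured beta-defensins, which are antimicrobial peptides of epithelia, rose. Defb8 read 11.23, 12.42 and 12.08 in stage II against 4.18 to 4.69 in controls, a rise of 7.52 (SE 0.47, 183-fold, limma adjusted p = 1e-06). Defb1 read 10.55, 11.22 and 12.72 against 5.01 to 6.39, a rise of 5.76 (SE 0.55), or 5.15 without stage II replicate 3. A second probe set of Defb1 gave 8.44. Defb4, the third beta-defensin, read 3.19, 3.26 and 3.33 in stage II against 3.12 to 3.46 in controls and did not pass (limma adjusted p = 0.998). Cd14, a receptor for bacterial lipopolysaccharide that macrophages and some epithelia make, rose by 2.50 (5.68-fold). The list of seminal vesicle and placental proteins behaved unevenly, with 3 of 19 genes higher (15.8%), 0 lower and a median of -0.03. Svs5 rose by 6.93 (122-fold, adjusted p = 2.4e-06) with stage II levels of 12.25, 12.53 and 13.28 against 4.89 to 6.47 in controls. Svs6 rose by 5.78 (55-fold) with stage II levels of 9.26, 9.71 and 11.14 against 3.92 to 4.49. Svs2 and Svs4, seminal vesicle genes chosen after their values were seen, stayed at the low end of the scale. Svs2 read 2.90, 2.98 and 2.86 in stage II against 2.90 to 3.22 in controls (difference -0.12, SE 0.08, adjusted p = 0.33), and Svs4 differed by 0.01 (SE 0.08, adjusted p = 0.94).

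Other genes among the highest encode surface proteins, transporters and enzymes. Ly6d, a surface protein of stratified epithelia and early lymphoid cells, read 12.25, 12.34 and 12.48 in stage II against 5.35 to 6.16 in controls and rose by 6.71 (105-fold, limma adjusted p = 2.4e-07). Tspan8, a tetraspanin of epithelial membranes, rose by 5.84 (57.2-fold), and its 4 probe sets gave rises between 3.86 and 6.31. Slc16a6, a monocarboxylate transporter, rose by 5.03 (32.7-fold). Nmb, the precursor of the peptide neuromedin B, rose by 4.51 (22.8-fold). Gldc, the glycine decarboxylase of mitochondria, rose by 4.48 and Ldhd, the D-lactate dehydrogenase, by 4.38. Genes with small spread gave the smallest p-values besides Pgr, Prl7a2, Fga and Ly6d. Fmo5, a flavin-containing monooxygenase, read 7.77, 7.84 and 7.81 in stage II against 5.17 to 5.41 in controls and rose by 2.49 (SE 0.10, adjusted p = 6.6e-08). Hopx, a small homeodomain protein, rose by 3.37 (adjusted p = 7.9e-08), Procr, the receptor of protein C, by 2.91 (adjusted p = 1.3e-07), Vps26a, a subunit of the retromer sorting complex, by 1.18 (adjusted p = 4e-07), and Myot, a protein of the muscle Z disc, by 2.46 (adjusted p = 4.9e-07). For each of them the stage II arrays lay above all controls.

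The epithelial genes did not move as a block. Of 35 keratin and junction genes, 8 rose (22.9%) and 2 fell (5.71%), against 9.81% and 11.2% of all genes, with a median of 0.07. Krt8, a keratin of simple epithelia, read 12.06, 12.26 and 13.49 in stage II against 8.45 to 9.33 in controls and rose by 3.59 (12-fold, limma adjusted p = 1e-05). Cldn11, a tight junction claudin, rose by 2.66 (6.32-fold), Cldn3 by 1.42 (2.67-fold), Cdh2, the adhesion protein N-cadherin, by 1.37 (2.58-fold), and Elf3, an epithelial transcription factor, by 0.82 (1.76-fold). The epithelial adhesion gene Epcam and the keratin gene Krt7, chosen after their values were seen, did not pass. Epcam differed by -0.67 (SE 0.31, adjusted p = 0.15) and Krt7 by -0.40 (SE 0.37, adjusted p = 0.50), and without control replicates 1 and 4 both passed, at -0.996 and -0.84 (limma adjusted p = 0.014 and 0.03). Among 12 markers of the ovarian surface and oviduct epithelium, Krt8 and Cldn3 alone passed, and the list's mean deviation was 0.08, 0.85 and 0.46 in the stage II arrays against -0.55 to 0.85 in controls, so the groups overlapped. Of 20 mucin and glycan genes, 7 rose and 3 fell. Galnt3, an enzyme that starts mucin-type glycans, rose by 3.24 (9.46-fold), while its other probe sets, with lower levels, gave 0.45 and 0.81. Galnt1 of the same enzyme family rose by 1.12 (2.18-fold, adjusted p = 1.2e-06), and the membrane mucin Muc13 by 2.34 (5.07-fold), with 0.99 from its second probe set.

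**Figure D2:**
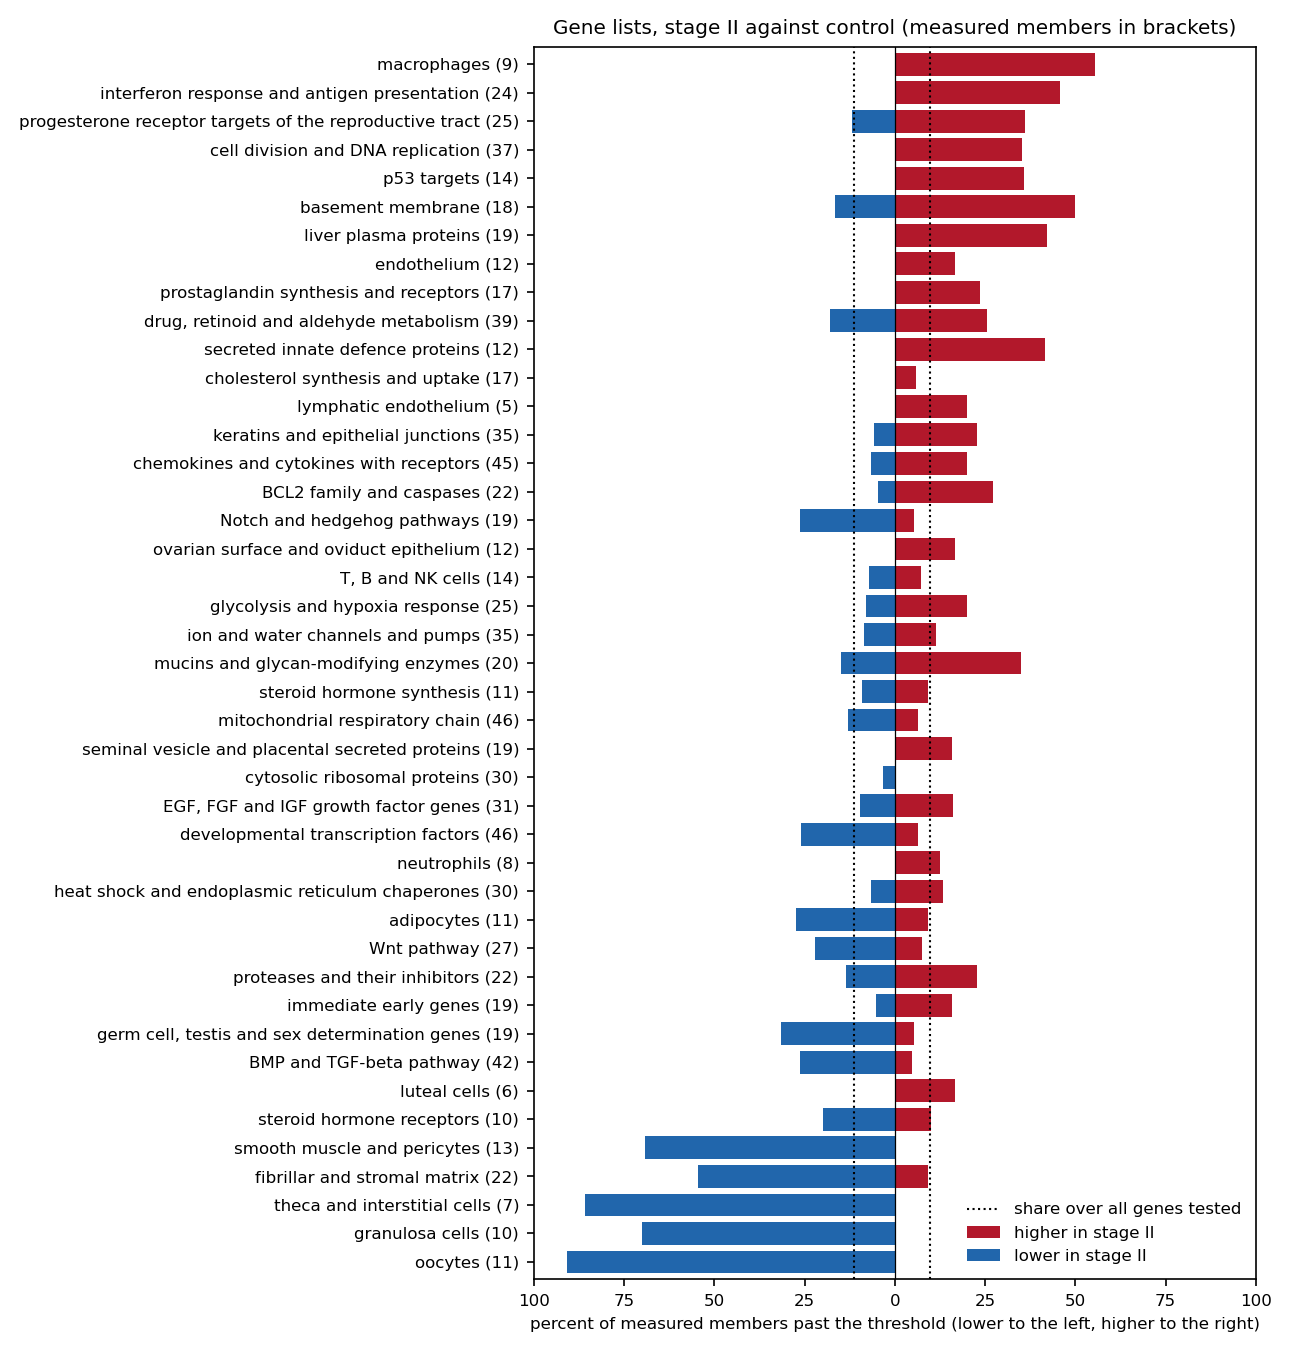
For each gene list with at least 5 measured members, bars give the percentage of members called higher (right) or lower (left) in stage II at an adjusted p under 0.05, with dotted lines at 9.81% and 11.2%, the shares over all genes. Oocyte, granulosa, theca, stromal matrix and smooth muscle lists extend to the left, and macrophage, interferon and basement membrane lists to the right.

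Genes known as progesterone receptor targets in the reproductive tract were split. Of 25 measured, 9 rose and 3 fell, with a median of 0.33, and without stage II replicate 3 the counts were 7 and 0. The decreases were Fkbp4 (-0.54), Cited2 (-0.36) and Nr2f2 (-0.24), and 13 genes were not called. Zbtb16, a transcription factor induced by progestins, read 8.06, 8.15 and 8.36 in stage II against 4.46 to 6.17 in controls and rose by 2.70 (6.52-fold, limma adjusted p = 0.00023), and its second probe set gave 0.74. Lrp2, the endocytic receptor megalin, rose by 2.46 (5.50-fold). Hand2, a transcription factor that uterine stroma makes in response to progesterone, read 6.49, 6.51 and 6.47 against 4.05 to 4.39 and rose by 2.28 (4.86-fold, adjusted p = 1.1e-06). Prkg2, a cGMP-dependent kinase found among ovulatory targets of the receptor, rose by 1.75 (3.36-fold), Lif, the implantation cytokine, by 1.14 (2.20-fold), and Tsc22d3, a leucine zipper protein induced by steroids, by 0.67 (1.59-fold). The list's mean deviation was 0.50, 0.54 and 0.51 in the stage II arrays and -0.20 to 0.17 in controls. Stage I arrays lay between 0.0039 and 0.17 on that measure. For Hand2, Prkg2, Lrp2 and Lif, stage I differed from control by 0.55, 0.34, 0.44 and 0.07, and each was higher in stage II than in stage I (adjusted p = 0.00013, 0.00064, 0.0011 and 0.0029). The receptor for Lif rose more than the cytokine itself. Lifr read 10.80, 10.81 and 10.81 in stage II against 6.08 to 6.29 in controls, a rise of 4.64 (24.9-fold, adjusted p = 1.1e-06), and Il6st, the signalling partner it shares with other receptors, rose by 0.85 (1.80-fold).

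Of 10 steroid receptor genes, Pgr rose, and the orphan receptors Nr5a1 and Nr5a2, which drive steroid enzyme genes in the gonad, fell by 0.59 and by 0.57 on the log2 scale (limma adjusted p = 0.006 and 0.0034). A second probe set of Nr5a1, at a low level, gave -0.19. The estrogen receptor genes, chosen after their values were seen, did not pass. Esr1 differed by -0.27 (SE 0.17, adjusted p = 0.31) and Esr2, the form of granulosa cells, by -0.50 (SE 0.18, adjusted p = 0.073, or 0.048 without stage I replicate 3).

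The oocyte, granulosa and theca marker lists held called decreases and 0 called increases. The luteal and surface epithelial lists held 0 called decreases, but 4 of 6 luteal and 6 of 12 surface epithelial genes lay below 0. With 11.2% of all genes lower, lists of that size are too short to read 0 calls as a difference. Of 11 oocyte genes, 10 fell and 0 rose, against 11.2% of all genes, with a median of -0.76. Without stage II replicate 3, 7 of the 11 fell. Nlrp14, a maternal factor of the oocyte, read 9.14, 9.26 and 8.26 in stage II against 9.58 to 10.09 in controls, a difference of -0.93 (SE 0.19, limma adjusted p = 0.0052). Nlrp5, another maternal-effect gene, differed by -0.90, the egg coat gene Zp3 by -0.81, the linker histone gene H1f8 by -0.81 and Dppa3 by -0.76. In each of these the stage II arrays lay below all controls, with replicate 3 the lowest. Stage I arrays had mean deviations of -0.19 to 0.07 over the list, inside the control range of -0.23 to 0.19, and stage II arrays had -0.57, -0.45 and -1.07.

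Of 10 granulosa genes, 7 fell and 0 rose, with a median of -0.64, but 3 fell without stage II replicate 3. The 1 gene above 0, Fst, differed by 0.34 and did not pass (limma adjusted p = 0.27). Inha, the inhibin alpha subunit, read 12.92, 13.13 and 12.15 in stage II against 13.33 to 13.59 in controls, a difference of -0.71 (SE 0.17, limma adjusted p = 0.011). Amhr2, the receptor of anti-Mullerian hormone, differed by -0.72. Inhba, the subunit shared by inhibin A and activin A, read 10.42, 11.29 and 8.67 against 11.25 to 12.47, so that the groups overlapped. Its difference of -1.77 passed the test (adjusted p = 0.015), and without stage II replicate 3 it was -1.04 and did not pass. Of 7 theca and interstitial genes, 6 fell, or 3 without stage II replicate 3, with a median of -0.50. Cyp17a1, the enzyme that turns progestins into androgens in theca cells, read 10.19, 10.26 and 6.06 in stage II against 10.79 to 12.18 in controls. Its difference of -2.68 (SE 0.74, 6.40-fold, adjusted p = 0.023) rested mostly on stage II replicate 3, without which it was -1.29, and without stage II replicate 1 or 2 it was as low as -3.39. Hhip, an inhibitor of hedgehog ligands made by their target cells, differed by -0.63, and the growth factor receptor gene Pdgfra by -0.50. Of 11 steroid synthesis genes, Cyp17a1 fell and Hsd17b11, a 17-beta-hydroxysteroid dehydrogenase, rose by 1.17 (2.25-fold). That is 9.09% in each direction, near the 9.81% higher and 11.2% lower of all genes. Akr1c18, which inactivates progesterone, was chosen after its values were seen and read 10.88, 10.61 and 7.48 in stage II against 10.47 to 13.59 in controls. Its difference of -2.57 (SE 1.08) was close in size to that of Cyp17a1 but did not pass (limma adjusted p = 0.11), except without stage I replicate 1 (adjusted p = 0.044), and it was -1.48 without stage II replicate 3. Star, the cholesterol carrier of steroid cells, was chosen after its values were seen and differed by -0.17 (SE 0.41, adjusted p = 0.82).

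Luteal markers varied too widely among controls for a direction. Of 6 genes, Parm1 alone passed, with a rise of 3.05 (8.30-fold, limma adjusted p = 3.4e-06). The list's mean deviation ran from -0.68 to 1.02 in controls and was 0.75, -0.26 and -0.56 in stage II.

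**Figure D3:**
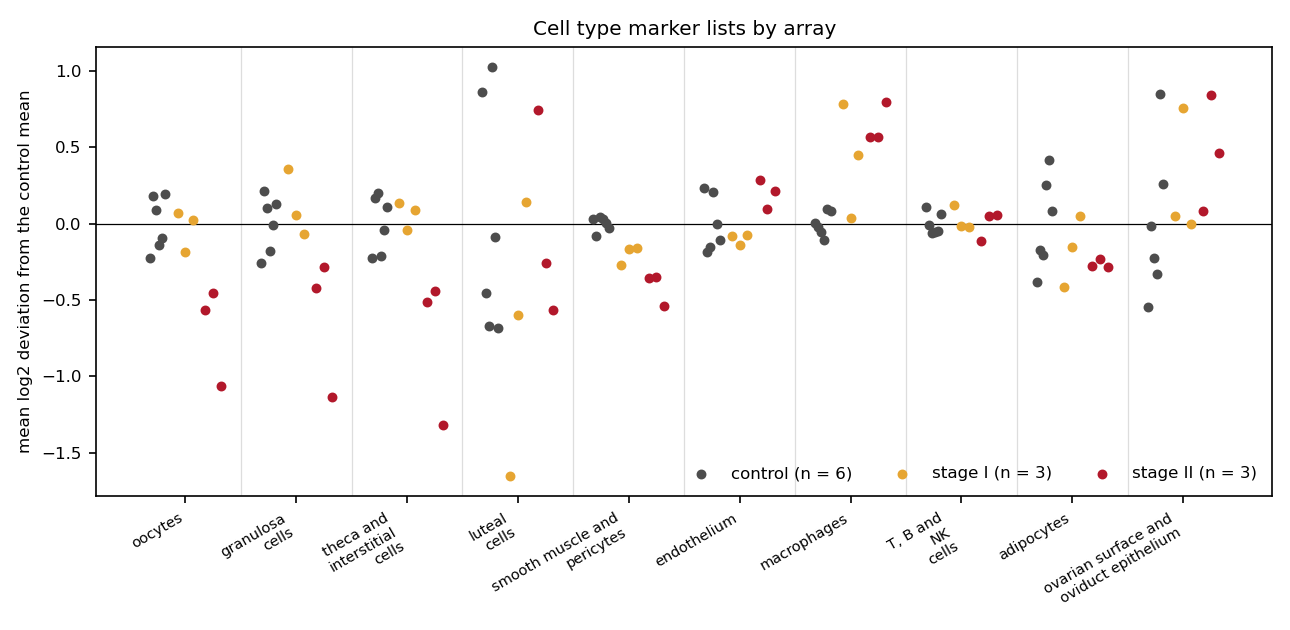
For each cell type marker list, points give the mean log2 deviation of an array from the control mean over the list's measured members, for 6 control, 3 stage I and 3 stage II arrays. Stage II arrays lie below all controls for oocyte, granulosa, theca and smooth muscle markers and above all controls for macrophage markers, and overlap the controls for luteal, T, B and NK cell, adipocyte and surface epithelium markers.

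The 25 decreases taken here had no overlap between the groups and were called in every fit that left out 1 array. Another 26 called genes with gene names, not clone names, fell at least as far but did not meet both conditions. Among them, chosen after their values were seen, were Tnc, the matrix protein tenascin C (-1.59), and Grem1, a secreted antagonist of bone morphogenetic proteins (-1.48). Tnc lost its call without control replicate 1, 4 or 6 or stage II replicate 3 (limma adjusted p up to 0.19), and Grem1 without stage II replicate 1 or 3 (up to 0.097). Adipoq, the fat cell hormone adiponectin, read 4.85, 6.17 and 4.88 in stage II against 6.29 to 9.88 in controls, a difference of -3.34 (SE 0.66, 10.1-fold, limma adjusted p = 0.0042). The highest stage II array lay close under the lowest control. Fat markers did not fall together. Of 11 adipocyte genes, 3 fell and 1 rose, and the fatty acid carrier gene Fabp4 rose by 2.47 (5.54-fold), with 1.52 and 0.25 from its other probe sets. The lipase gene Lpl differed by -0.68. The neuronal receptor subunit gene Gabrb2 differed by -1.93 (3.82-fold), and its other probe sets gave -1.46, -0.46 and -0.48. Asgr1, a liver lectin receptor, differed by -1.78 (3.44-fold), the cytochrome gene Cyp2e1 by -1.60 (3.04-fold), and Nupr1, a stress-induced chromatin protein, by -1.26 (2.40-fold). Pdia4, a protein disulfide isomerase of the endoplasmic reticulum, differed by -1.16 (2.24-fold).

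**Figure D4:**
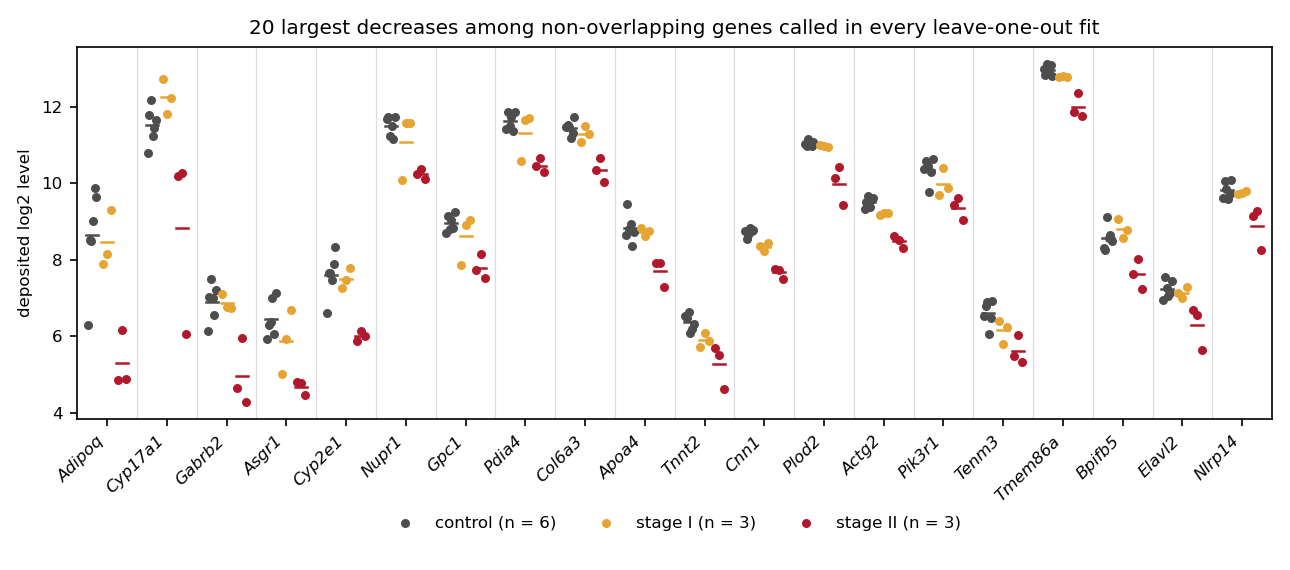
The deposited log2 level (vertical axis) of 20 genes is plotted for each array of the control, stage I and stage II groups, with the group mean as a short line. They are the largest decreases among genes chosen to have no overlap of stage II with control arrays and a call in every fit that left out 1 array, so the separation follows from the choice. Cyp17a1 has 1 stage II array at 6.06 with the other two at 10.19 and 10.26.

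Stromal matrix and smooth muscle lists held more decreases than increases, and the basement membrane list held more increases. Of 22 stromal matrix genes, 12 fell and 2 rose, with a median of -0.44, and 9 fell without stage II replicate 3. Col6a3, a chain of collagen VI, read 10.34, 10.66 and 10.04 in stage II against 11.19 to 11.73 in controls, a difference of -1.11 (SE 0.14, limma adjusted p = 0.00021). Col5a1, Col1a1 and Col3a1, which encode fibrillar collagen chains, differed by -0.63, -0.41 and -0.47, and Plod2, the enzyme that modifies collagen lysines for cross-linking, by -1.05. The exceptions were Fn1, fibronectin, and Vcan, the proteoglycan versican. Fn1 read 13.47, 13.40 and 13.05 against 10.17 to 10.40 and rose by 3.00 (8.01-fold, adjusted p = 4.5e-06), and Vcan rose by 1.30 (2.45-fold). Of 13 smooth muscle and pericyte genes, 9 fell and 0 rose, with a median of -0.39. The 4 not called were Myh11 (0.10), Rgs5 (0.14), Notch3 (0.16) and Pdgfrb (-0.12). The list's mean deviation was -0.36, -0.35 and -0.54 in the stage II arrays and -0.08 to 0.04 in controls. Stage I arrays, at -0.27 to -0.16, also lay below all controls. Cnn1, the actin-binding protein calponin, read 7.75, 7.75 and 7.51 against 8.54 to 8.82 (difference -1.05, SE 0.08, adjusted p = 3e-06). The smooth muscle actins Actg2 and Acta2 differed by -1.02 and -0.66, and the actin-binding protein Tagln by -0.78.

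Of 18 basement membrane genes, 9 rose and 3 fell, with a median of 0.24. The 9 increases were called in every fit that left out 1 array, whereas 1 of the 3 decreases was. Lamb2, a laminin beta chain, read 9.96, 10.05 and 9.97 in stage II against 8.39 to 8.64 in controls and rose by 1.49 (2.81-fold, limma adjusted p = 1.1e-05). The laminin chains Lama5, Lamb3 and Lamc1 rose by 1.53, 0.82 and 0.69, Col4a1 of collagen IV by 0.78 and Nid1, which links laminin to collagen IV, by 0.46. Of 22 protease and inhibitor genes, 5 rose (22.7%) and 3 fell (13.6%), against 9.81% and 11.2% of all genes. Timp2, an inhibitor of matrix metalloproteinases, rose by 3.75 (13.4-fold, adjusted p = 2.1e-06), Mmp19, a secreted metalloproteinase, by 3.31 (9.88-fold), St14, the epithelial surface protease matriptase, by 1.15 (2.23-fold) and the gelatinase Mmp2 by 0.79 (1.73-fold). Mmp14, a membrane protease that works with Timp2 to activate Mmp2, went down, with a difference of -0.68 (adjusted p = 0.0026).

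Of 9 macrophage genes, 5 rose and 0 fell, with a median of 0.48, and 3 of the 5 were called in every fit that left out 1 array. Cd14 is described above. Aif1, a calcium-binding protein of macrophages, read 7.81, 7.82 and 8.30 in stage II against 6.97 to 7.34 in controls and rose by 0.85 (1.80-fold, limma adjusted p = 0.0038), and Csf1r, the receptor for macrophage growth factor, rose by 0.48 (1.39-fold). Calls for the complement genes C1qa (0.52) and C1qb (0.50) were lost when any of control replicates 1 to 4 or stage II replicates 1 or 3 was left out, for C1qb also without stage II replicate 2. Stage I was close to stage II for Csf1r (0.46 above control, stage II minus stage I 0.02, adjusted p = 0.96). Of 14 T, B and NK cell genes, 1 rose and 1 fell (7.14% each), near the 9.81% and 11.2% of all genes. The increase, in the pan-leukocyte gene Ptprc (0.45), was lost without any of control replicates 2 to 5, stage I replicate 3 or stage II replicates 1 to 3. For this list the mean deviation was -0.11, 0.05 and 0.06 in the stage II arrays against -0.06 to 0.11 in controls. The T cell and stromal marker Thy1 differed by -0.44 (adjusted p = 0.01). Of 8 neutrophil genes, the antimicrobial peptide gene Camp alone passed (12.5%). It rose by 0.42, and its call was lost without stage II replicate 1. Of 3 red cell genes, 0 passed by limma. The membrane protein gene Epb42 had an unadjusted p under 0.05, as did 3677 of the 10949 genes. Its difference was 0.20, and its second probe set, with a lower level, gave -0.10. Of 12 endothelial genes, 2 rose (16.7%), against 9.81% of all genes. Flt1, a receptor for vascular endothelial growth factor, rose by 0.82 (1.76-fold).

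Of 24 interferon response and antigen presentation genes, 11 rose and 0 fell, with a median of 0.42. The count was 5 without stage II replicate 1 and 6 without stage II replicate 3. Isg20, an interferon-induced exonuclease, read 9.32, 9.23 and 9.63 in stage II against 7.16 to 7.58 in controls and rose by 1.98 (3.95-fold, limma adjusted p = 7.1e-07). The antiviral protein gene Rsad2 rose by 0.87 (1.83-fold), Ifi35 by 0.58 and Tapbp, a chaperone of class I loading, by 0.51. Of 45 chemokine, cytokine and receptor genes, 9 rose (20%) and 3 fell (6.67%), or 5 and 0 without stage II replicate 3. Besides Lifr, Lif and Il6st, the chemokine genes Ccl17 and Cxcl1 rose by 1.12 (2.17-fold) and 1.00 (2.00-fold).

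Of 31 EGF, FGF and IGF genes, 5 rose (16.1%) and 3 fell (9.68%), against 9.81% and 11.2% of all genes, and 4 of the increases but 0 of the decreases were called in every fit that left out 1 array. Hbegf, a ligand of the EGF receptor, read 8.97, 9.03 and 8.51 in stage II against 6.57 to 7.03 in controls and rose by 2.00 (3.99-fold, limma adjusted p = 1.5e-06). Stage I differed from control by 0.29 for Hbegf, and stage II was 1.71 above stage I (adjusted p = 0.00012). Tgfa, another ligand of that receptor, rose by 1.12 (2.17-fold), and the FGF receptor genes Fgfr1 and Fgfr3 by 1.19 (2.28-fold) and 1.07 (2.10-fold). Tgfa and Fgfr3 were 0.03 and 0.06 above control in stage I and 1.08 and 1.01 higher in stage II than in stage I (adjusted p = 0.012 and 0.0027). Of 42 BMP and TGF-beta genes, 11 fell and 2 rose, with a median of -0.22, and 3 fell without stage II replicate 3. Fstl3, a secreted binder of activins, rose by 1.35 (2.55-fold), whereas the ligand gene Tgfb2 and the secreted glycoprotein gene Fstl1 differed by -0.58 and -0.54. Of 19 Notch and hedgehog genes, 5 fell (26.3%) and 1 rose (5.26%). The counts were 2 and 1 without stage II replicate 3, and 3 and 1 without control replicate 6. The hedgehog transducer gene Smo differed by -0.56, while the receptor gene Notch1 rose by 0.46 (1.38-fold). Of 27 Wnt genes, 2 rose (7.41%) and 6 fell (22.2%), against 9.81% and 11.2% of all genes. Without stage II replicate 3 the counts were 1 and 1, the same as the calls made in every fit that left out 1 array. The latter were the receptor genes Fzd1, which rose by 1.05 (2.08-fold), and Fzd3, which differed by -0.41.

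Of 46 developmental transcription factor genes, 12 fell and 3 rose, or 7 and 1 without stage II replicate 3. Besides the rise of Hand2, Lhx9, a factor of the early gonad, read 6.82, 7.31 and 6.80 in stage II against 7.41 to 8.12 in controls, a difference of -0.91 (limma adjusted p = 0.0027). Its other probe sets gave -0.71 and -0.29. The mesenchymal factor gene Prrx1 differed by -0.69, Meis2, a cofactor of Hox proteins, by -0.66 and Sox4 by -0.52.

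Cell cycle genes rose in part. Of 37 cell division genes, 13 rose and 0 fell, with a median of 0.27, but 4 rose without stage II replicate 3, 6 without stage II replicate 1 or control replicate 5, and 8 without control replicate 1 or 3. Ccnd1, the cyclin of entry into the cell cycle, read 12.36, 12.51 and 12.84 in stage II against 7.83 to 8.50 in controls and rose by 4.37 (20.6-fold, limma adjusted p = 1.5e-06). Its second probe set gave 4.78. Rrm2, a subunit of the enzyme that makes deoxyribonucleotides, rose by 3.06 (8.33-fold), the thymidine kinase gene Tk1 by 0.88 (1.84-fold) and the S phase cyclin gene Ccne1 by 0.42 (1.34-fold). Mki67 and Top2a, markers of dividing cells chosen after their values were seen, did not pass. Mki67 read 10.07, 9.93 and 10.39 against 9.73 to 10.15 (difference 0.17, SE 0.11, adjusted p = 0.32), and Top2a differed by 0.10 (SE 0.10, adjusted p = 0.54).

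Of 14 p53 target genes, 5 rose and 0 fell, with a median of 0.27. Pmaip1, the gene of the p53-induced death factor Noxa, read 11.26, 11.39 and 10.99 in stage II against 4.41 to 5.72 in controls and rose by 6.27 (77.4-fold, limma adjusted p = 1.1e-06). Mdm2, the ligase that limits p53, rose by 1.28 (2.43-fold), Ccng1, a cyclin induced by p53, by 0.95 (1.93-fold) and the desmosomal gene Perp by 0.45 (1.37-fold). The target Cdkn1a, chosen after its values were seen, was too spread among controls to pass, with a difference of 0.44 (SE 0.34, adjusted p = 0.41). Of 22 BCL2 family and caspase genes, 6 rose and 1 fell, and all 7 calls were made in every fit that left out 1 array. The increases included both killers and protectors. Bcl2l1, which encodes the anti-apoptotic BCL-XL, rose by 0.79 (1.73-fold, adjusted p = 2.1e-05), with 0.17 to 1.00 over its 4 probe sets, and the inhibitor of apoptosis gene Birc2 rose by 0.83 (1.78-fold). Bcl2l11, which encodes pro-apoptotic BIM, rose by 0.68 (1.60-fold), and the initiator caspase gene Casp8 by 0.72 (1.65-fold).

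Of 39 drug, retinoid and aldehyde metabolism genes, 10 rose (25.6%) and 7 fell (17.9%), against 9.81% and 11.2% of all genes. All 10 increases were called in every fit that left out 1 array, and 4 of the decreases were. Gsta3, a glutathione transferase, rose by 4.01 (16.1-fold), Aldh1a7, an aldehyde dehydrogenase, by 3.76 (13.5-fold), and Sult1a1, a phenol sulfotransferase, by 2.67 (6.35-fold, limma adjusted p = 3.5e-06). Ugt2b34, a glucuronosyltransferase, was uneven among the stage II ovaries at 7.13, 7.31 and 10.11 against 3.57 to 3.92 in controls. Its rise of 4.52 was 3.55 without stage II replicate 3. Of 17 prostaglandin genes, 4 rose (23.5%) and 0 fell, or 2 rose without stage II replicate 1. Slco2a1, the prostaglandin transporter, rose by 2.78 (6.88-fold, adjusted p = 1.5e-06), with stage II levels of 11.73, 11.86 and 12.41 against 8.96 to 9.51. Of 25 glycolysis and hypoxia genes, 5 rose (20%) and 2 fell (8%), and Ndrg1, a stress-responsive gene, rose by 3.14 (8.79-fold). The glycolytic enzyme gene Pkm rose by 0.46 (1.38-fold). Of 30 chaperone genes, 4 rose (13.3%) and 2 fell (6.67%), near the 9.81% and 11.2% of all genes. The small heat shock protein genes Hspb1 and Cryab rose by 2.57 (5.94-fold) and 0.92 (1.89-fold) and Hspa2 of the HSP70 family by 1.43 (2.70-fold), against the fall of Pdia4. Of 46 respiratory chain genes, 3 rose (6.52%) and 6 fell (13%), near the 9.81% and 11.2% of all genes, and 2 in each direction were called in every fit that left out 1 array, with a median of -0.02. Sdhb, a subunit of succinate dehydrogenase encoded on chromosome 4, differed by -0.51 (adjusted p = 0.00046). Of 30 ribosomal protein genes, 0 rose and 1 fell (3.33%), and that call was not made in every fit that left out 1 array.

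Of 19 immediate early genes, 3 rose (15.8%) and 1 fell (5.26%), and 2 of the increases were called in every fit that left out 1 array. These were Fos, a component of the AP-1 transcription factor, which rose by 1.39 (2.62-fold, limma adjusted p = 0.0026), and the zinc finger factor gene Klf6, which rose by 0.82 (1.76-fold). Of 35 channel and pump genes, 4 rose (11.4%) and 3 fell (8.57%), near the 9.81% and 11.2% of all genes, and 2 increases were called in every such fit, among them that of the water channel gene Aqp11 (0.82). Of 19 germ cell and sex determination genes, 1 rose (5.26%) and 6 fell (31.6%), or 2 fell without stage II replicate 3, and of these the decreases of Nr5a1 and Lhx9 were called in every such fit. The 1 increase among 17 cholesterol genes (Srebf1, a regulator of lipid synthesis, 0.29) was lost without stage II replicate 3, and the 1 among 5 lymphatic genes (Lyve1, a hyaluronan receptor, 0.95) without stage II replicate 2.

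The 3 stage II ovaries were not alike for every gene. The median SD over genes was 0.119 within stage II and 0.118 within controls, and 49.4% of genes had the larger SD in stage II. Replicate 3 stood apart for some. Cntnap2, a neuronal adhesion gene, read 6.17, 6.34 and 9.65 against 4.95 to 5.38 in controls, and its difference of 2.21 ran from 1.07 without stage II replicate 3 to 2.81 without stage II replicate 1. Asb12, a subunit of a ubiquitin ligase, read 6.44, 5.57 and 8.50 against 3.40 to 4.05. In the opposite sense, the peptide transporter gene Slc15a1 read 6.88, 7.80 and 5.13 against 3.72 to 4.00. Klk1b24, a kallikrein of the mouse cluster, read 6.71, 6.74 and 4.60 against 3.63 to 4.05. The folds of Asb12 and Slc15a1 changed by more than 1.5 times without stage II replicate 2 or 3, and that of Klk1b24 without replicate 3. Each of these genes passed without any single array (limma adjusted p at most 0.012).

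Decreases were unevenly spread over the chromosomes. Of 626 genes tested on chromosome 4, 179 fell (28.6%) and 30 rose (4.79%), whereas the shares on the chromosomes other than 4 and 14 together were 10.1% and 10.3%. The median difference of chromosome 4 genes was -0.14 on the log2 scale, and the 3 stage II arrays had median deviations from the control mean of -0.11, -0.13 and -0.18. Stage I arrays had -0.04, -0.0042 and -0.0071. The decrease ran along the chromosome: in 4 equal groups of its genes in map order, 33.1%, 28.6%, 28.6% and 25.8% fell. Chromosome 14 had 13.4% lower and 5.67% higher among 388 genes, with stage II medians of -0.05, -0.04 and -0.15. Without stage II replicate 3, 12% of chromosome 4 genes fell against 3.5% on the chromosomes other than 4 and 14, and chromosome 14 had 2.84% lower. Named genes on chromosome 4 include Sdhb, the smooth muscle tropomyosin gene Tpm2, which differed by -0.65 (limma adjusted p = 8.1e-05), and Elavl2, an RNA-binding protein gene of oocytes and neurons, which differed by -0.93 (adjusted p = 0.0078). The distribution over chromosomes was chosen for description after its values were seen, and no copy number was measured.

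**Figure D5:**
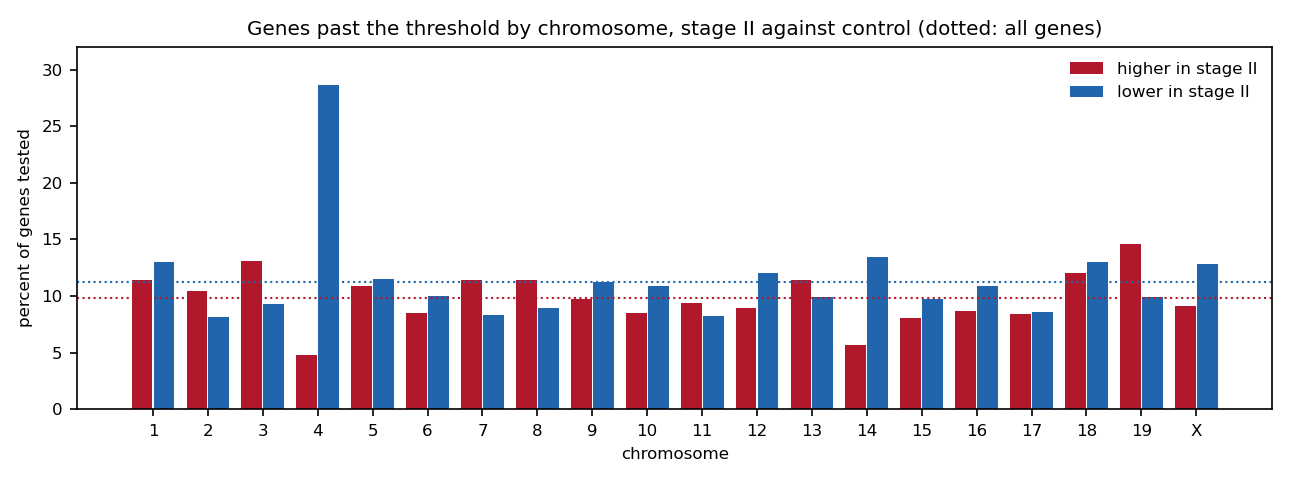
For each chromosome, bars give the percentage of its tested genes called higher and lower in stage II at an adjusted p under 0.05, with dotted lines at the shares over all genes (9.81% higher and 11.2% lower). Chromosome 4 has 28.6% lower and 4.79% higher, and the next highest share of decreases is 13.4% on chromosome 14.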

How the data were processed

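Gene expression was measured on 1-colour Affymetrix mouse arrays, 1 per ovary sample. The authors deposited log2 values per probe set and array. How they summarised and normalized them is not given in the sources used here. Per the labels' protocols, RNA was taken up in Trizol, cleaned on columns and labelled with biotin, and the protocol also names Cy3 and Cy5. Scanner intensities and detection calls were not used, so background was not measured for any probe set, and folds of genes with controls near the bottom of the scale (lowest value 2.69) depend on it. The 16376 probe sets are part of the array's range, and genes measured by others were not analysed here. Probe sets whose names end in s_at or x_at can share probes between transcripts.

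The deposited values were used as they stand. Using limma 3.58.1 in R 4.3.3, 1 mean per group was estimated for the 3 groups from all 12 arrays together (9 residual and 3.13 prior degrees of freedom), and p-values were adjusted by Benjamini-Hochberg over 10949 genes, with 0.05 as the threshold. SE is that of the model, with 1 spread per gene pooled over the 3 groups. For some genes the groups' spreads were unequal and stage I had the largest. The SD of Lifr was 1.00 in stage I, 0.10 in controls and 0.0049 in stage II. For Prl7a2 these were 1.29, 0.20 and 0.27. Nothing in the labels beyond the word bioreplicate says how samples were separated. The p-values thus measure the spread between these samples, stage I included, and the number of arrays limits the precision. Symbols follow the platform annotation, with 14632 probe sets matched by Entrez identifier to the RefSeq table of GRCm38.p6, from which the promoters come. The script was tested on simulated data.

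The members, the 44 gene lists (1362 entries, 918 measured) and the alternatives were chosen with earlier results of these data known. Named genes were Pgr, the 25 highest and 25 lowest non-overlapping genes called in every fit that leaves out 1 array, up to 5 called members of each list, the 8 called genes with the largest SD in stage II and the 10 smallest p-values. The text leaves some out and says where others were added. A list's mean deviation is the mean over its members of an array's difference from the control mean.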

Additional observations from a re-analysis of the deposited data

Results flagged for a closer look

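Control replicate 4 stood apart from the other 5 controls for 4 of the 166 genes named and for 1 of 44 list means. Its level was 5.07 for Camp (nearest control 4.74), 5.58 for Cldn11 (nearest 6.09), 8.80 for Ifi35 (nearest 8.55) and 9.73 for Vcan (nearest 10.51). Its mean deviation over the lymphatic endothelium list was -0.23 (nearest -0.02). In each case the gap to the nearest control, as a share of the range of the 6 controls, exceeded the usual Dixon limit. Chance gives such a gap in about 1 of 20 groups, and 4 of 166 genes and 1 of 44 lists are smaller shares than that. Without that array the stage II differences of Camp, Cldn11, Ifi35 and Vcan still passed the test.

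Among 1702 probe sets that the annotation pairs with several symbols or none, 248 passed in stage II against control when every probe set was fitted together, 125 of them higher and 123 lower. They were not part of the comparison by gene.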

How the results depend on the processing

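Counts for stage II against control stayed within 1.5 times of 2302 under quantile normalization, median centring, removal of dim genes, averaged probe sets, a fit restricted to both groups, weighted arrays, a robust prior with trend, and a fit of every probe set. The same held when control replicates 1 and 4, or the 3 highest arrays for Ovgp1, were left out. A floor of 2-fold left 274 genes, 244 higher and 30 lower. Leaving out each array in turn gave 1145 to 2432 genes, 713 to 1135 higher and 432 to 1297 lower. Stage II against stage I (1370 genes) was less stable: 393 genes (311 higher, 82 lower) with those groups alone, 2308 (1094 and 1214) with array weights, 544 (329 and 215) when the 3 highest Ovgp1 arrays were left out, 206 (184 and 22) at 2-fold, and 605 to 1610 (408 to 772 higher, 170 to 838 lower) without single arrays. The cause was not tested.

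Labels give the groups the same replicate numbers and do not say whether these pair the samples. Deviations of same-numbered arrays correlated between -0.132 and 0.204. They were not set against differently numbered arrays, so these values cannot decide whether samples were paired. With the replicate number as a block, 1090 genes passed in stage II against control (688 higher, 402 lower) and 602 in stage II against stage I (435 and 167). In that fit, 26 of the 166 named genes lost their call. Among them were the decreases of Cyp17a1, Inha, Inhba, Amhr2, Dppa3 and H1f8 and the increases of Csf1r, Ccne1 and Perp. For the genes named here, the limma adjusted p ran from 0.051 (Csf1r) to 0.13 (Cyp17a1), and Tnc, which also lost its call, had 0.21.

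Of the 166 named genes, 6 changed sign in some settings, and none of the 6 passed the test in those settings or as reported. Alb (0.04 as reported) read -0.013 under quantile normalization and -0.040 to 0.101 without single arrays. Ovgp1 read -0.73 with array weights and -0.023 to 2.80 without single arrays. Star read 0.45 with array weights, 0.27 without control replicates 1 and 4, 0.18 when the 3 highest Ovgp1 arrays were left out, and -0.62 to 0.27 without single arrays. Svs4 read -0.0082 with medians centred, -0.040 with array weights, -0.054 with the replicate block, -0.012 without control replicates 1 and 4, and -0.024 to 0.039 without single arrays. Top2a read -0.029 with the replicate block. Defb4 (0.00041 as reported) read -0.0094 under quantile normalization, -0.019 with medians centred, -0.0091 with array weights and -0.033 to 0.040 without single arrays. Epcam passed with array weights (-0.89). With the 3 highest Ovgp1 arrays left out, 7 named genes lost their call, among them Col1a1 (-0.40, limma adjusted p = 0.051) and Perp (0.37, adjusted p = 0.062). Detection limits are unknown, which limits the folds of genes low in controls.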
